A study of Mus musculus with 24 samples.

Results

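The A2 panel is a set of genes that were described as raised in astrocytes after ischemic injury of the brain, and it is used beside an A1 panel, raised after systemic lipopolysaccharide, and a pan-reactive panel, raised after both. The 10 members followed here, Tgm1, Ptx3, S100a10, Sphk1, Cd109, Ptgs2, Emp1, Slc10a6, Tm4sf1 and Cd14, were found by symbol in the Gencode mouse annotation among the 49671 genes counted. Slc10a6 did not pass the filter on low counts, so 9 of the 10 members were tested.

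The study compared mouse astrocytes from different sources by RNA-seq, with 4 libraries in each of 6 groups and 24 in all. NSC were neural stem cells of 1 embryonic stem cell line (GSC-5003, from C57Bl/6N mice) at passages 50 to 60, grown with FGF and EGF at 20 ng/ml each. AGES were astrocytes made from these NSC with 20 ng/ml BMP4 over 3 to 5 days. Primary astrocytes of C57BL/6J mice of both sexes, with the brains of 2 mice pooled per isolation, were isolated with magnetic beads against ACSA-2, a surface antigen of astrocytes. neoAC came from neonatal mice 4 to 8 days old and AdAC from adult mice 100 to 140 days old, each either snap-frozen after isolation (direct) or kept in culture for 7 to 10 days (CellC). The study's methods describe removal of the meninges for neonatal brains and a different dissociation kit, with removal of debris and red blood cells, for adult brains, so age and isolation procedure cannot be told apart. The sample labels name the adult kit for all primary astrocytes, so the records differ on this point. For neonatal brains the methods name cerebral tissue. For adult brains they name removal of olfactory bulb and cerebellum for direct isolation, and whether this held for adult culture is not stated. Primary cultures were grown in AstroMACS medium and NSC and AGES in N2B27 medium, so source and medium cannot be told apart between them. The methods define replicates as separate isolations of primary astrocytes and separate cultures of NSC and AGES at different passages.

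Reactive astrocytes enlarge their intermediate filaments, secrete acute phase and complement proteins and change their surface receptors. The A2 genes do not form 1 pathway. Ptgs2 (COX-2) makes the prostaglandin precursor and Sphk1 makes sphingosine 1-phosphate, a lipid mediator with its own receptors. Ptx3 is a secreted long pentraxin that binds microbes, complement and hyaluronan matrix, and Cd14 is the coreceptor that hands lipopolysaccharide to Toll-like receptor 4. S100a10 forms a complex with annexin A2 at the membrane, Emp1 and Tm4sf1 are small proteins with 4 membrane passes, Cd109 is a lipid-anchored surface protein that binds TGF-beta, Tgm1 crosslinks proteins, and Slc10a6 carries sulfated steroids. Ptgs2 is also an immediate early gene, induced fast in many cells.

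The promoters of 7 members (Tgm1, Ptx3, Sphk1, Ptgs2, Emp1, Slc10a6 and Tm4sf1) were matched in RefSeq (GRCm38.p6), with 13 windows of 300 bases, each 250 before to 50 after a transcription start. Both strands were searched for the letters TGANTCA (AP-1), TGACGTCA (CRE), TTCNNNGAA (STAT), GGAATG (TEAD), GGG and CC with any 5 bases between (NF-kB), CACGTG (E-box) and, as core promoter letters, TATAAA. The 250 bases before the start are shown 5′ to 3′ for 4 of these members, with the matches in capitals. The window of Sphk1 shown, 1 of 5, is the one with the AP-1 and STAT matches nearest to its start.
Emp1 (chr6:135362681-135362930, plus strand): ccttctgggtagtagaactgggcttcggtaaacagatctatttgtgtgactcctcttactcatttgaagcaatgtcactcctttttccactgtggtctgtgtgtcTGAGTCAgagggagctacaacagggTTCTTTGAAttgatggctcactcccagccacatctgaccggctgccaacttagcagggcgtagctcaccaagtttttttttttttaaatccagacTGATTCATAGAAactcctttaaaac
Ptgs2 (chr1:150099781-150100030, plus strand): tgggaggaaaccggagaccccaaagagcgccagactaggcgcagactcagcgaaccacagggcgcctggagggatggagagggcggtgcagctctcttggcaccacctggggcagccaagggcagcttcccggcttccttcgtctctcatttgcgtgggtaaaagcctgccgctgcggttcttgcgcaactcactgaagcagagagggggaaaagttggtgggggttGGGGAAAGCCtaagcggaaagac
Tm4sf1 (chr3:57301989-57302238, minus strand): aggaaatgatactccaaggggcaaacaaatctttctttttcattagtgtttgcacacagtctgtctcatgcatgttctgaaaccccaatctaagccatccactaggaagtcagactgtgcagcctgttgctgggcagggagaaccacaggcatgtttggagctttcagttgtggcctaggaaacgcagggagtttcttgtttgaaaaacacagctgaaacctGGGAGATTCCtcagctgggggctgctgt
Sphk1 (chr11:116531587-116531836, plus strand): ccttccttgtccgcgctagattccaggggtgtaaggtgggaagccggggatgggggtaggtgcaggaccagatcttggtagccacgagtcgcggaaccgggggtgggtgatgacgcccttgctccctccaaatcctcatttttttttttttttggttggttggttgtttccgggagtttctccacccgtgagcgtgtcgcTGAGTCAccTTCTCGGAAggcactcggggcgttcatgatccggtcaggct
In Emp1, AP-1 letters began 145 and 25 bases and STAT letters 120 and 22 bases before the start, and the last of each overlap. In Sphk1, AP-1 letters began 50 and STAT letters 41 bases before the start. The NF-kB letters, which allow many sequences, began 23 bases before the start in Ptgs2 and 28 in Tm4sf1. AP-1 letters were in windows of 2 of the 7 members against 7.81% of the 32851 windows in the RefSeq table, STAT letters in 3 against 8.3%, TEAD letters in 2 against 14.7%, E-box letters in 2 against 7.15%, TATAAA in 1 against 13.6%, NF-kB letters in 5 against 50.8%, and CRE letters in 0 against 1.79%. Such a match is a description of the sequence and not a bound site, and members with several windows had more chances of a match.

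The libraries held 27904126 to 37997368 counts each. Levels are in CPM, counts relative to the size of the library after TMM scaling, and SE is the standard error of a log2 fold change. A floor of 3 counts per library was 0.0846 to 0.0997 CPM, depending on the group, and it covers counting error only. The summed level of 9 astrocyte markers was 54560 to 59220 CPM in AGES, of which Gfap alone had a mean of 50480, 20070 to 22690 CPM in neoAC direct and 14120 to 14600 CPM in AdAC direct. After culture it was 6547 to 7625 CPM in neonatal and 906 to 1386 CPM in adult cells. In AdAC CellC this sum lay below the 1984 to 2502 CPM of NSC. Markers of other cells were also present: 6 oligodendrocyte genes summed to 25590 to 28410 CPM in AdAC direct and to 4090 to 10430 CPM in AdAC CellC, and 7 fibroblast genes to 1129 to 1589 CPM in AdAC CellC. In such bulk libraries, fewer cells of a type and less RNA per cell cannot be told apart.

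**Figure D1:**
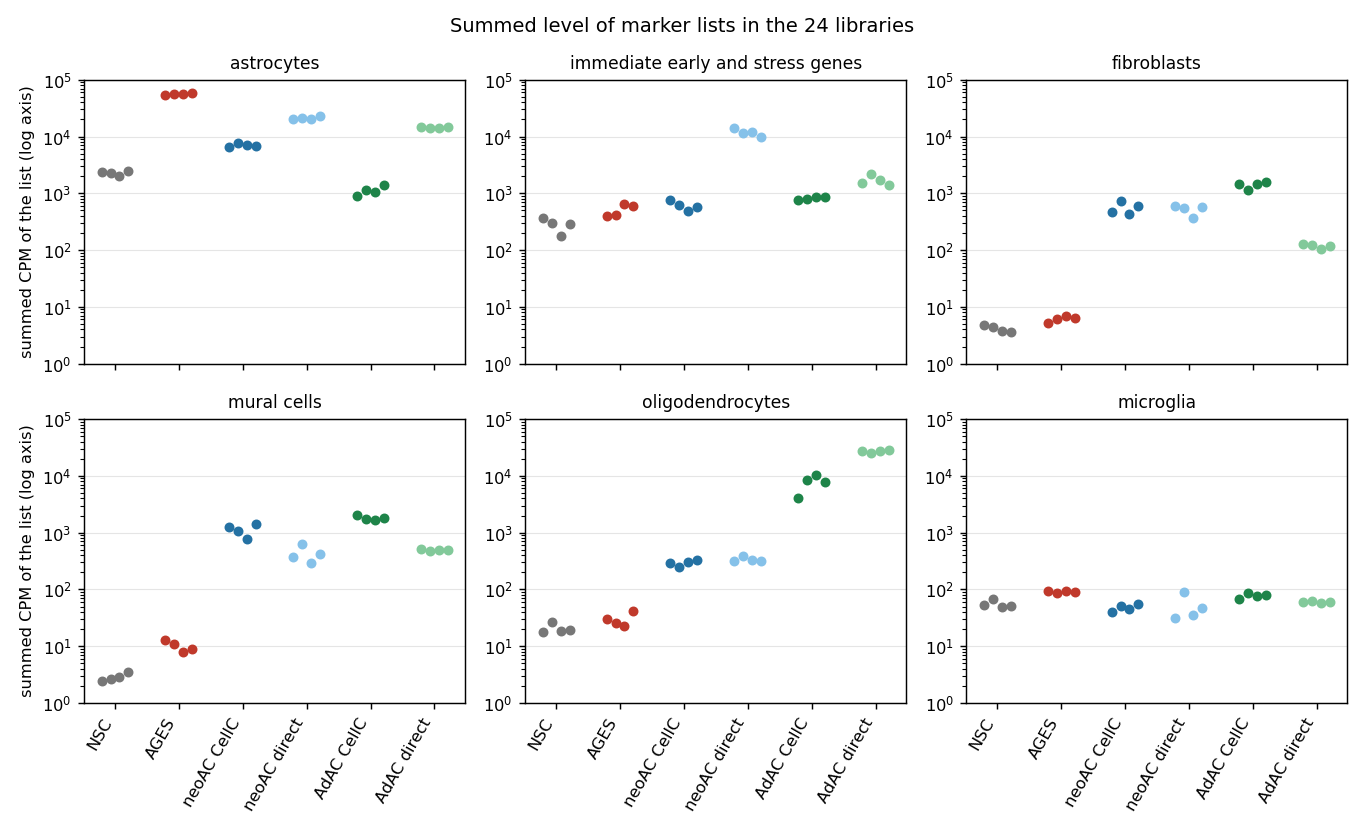
Summed CPM (log axis) of 6 marker lists in each of the 24 libraries, with 1 point per library and a colour per group. Immediate early and stress genes reach 9676 to 14100 CPM in neoAC direct, and fibroblast and mural markers lie at no more than 12.6 CPM in the libraries of NSC and AGES.

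Of the 10 members, 6 had their highest mean in AdAC CellC, 2 (Ptx3 and Cd14) in neoAC direct, Cd109 in neoAC CellC and Slc10a6 in AGES. The highest group mean was 198 ± 22.7 CPM (SD, n = 4) for Tm4sf1, 182 ± 21.8 CPM (SD, n = 4) for S100a10 and 166 ± 18.4 CPM (SD, n = 4) for Emp1 in AdAC CellC, and 235 ± 30.9 CPM (SD, n = 4) for Cd109 in neoAC CellC. That of Ptx3 was 48.03 ± 5.81 CPM (SD, n = 4), that of Ptgs2 42.5 ± 5.85 CPM (SD, n = 4), and those of Sphk1, Tgm1 and Cd14 were 17.2 ± 2.25, 13.4 ± 4.07 and 11.8 ± 1.07 CPM (SD, n = 4). The lowest mean of a member was in NSC for 5, in AGES for 3 and in AdAC direct for 2. Per kilobase of exon, which allows levels of different genes to be compared, S100a10 was the highest member in both cultured groups (149.9 CPM per kb in AdAC CellC and 85.6 in neoAC CellC). In the other groups the highest member was Tm4sf1 in AdAC direct (37.5 CPM per kb) and in AGES (9.04), Ptx3 in neoAC direct (17.9) and Emp1 in NSC (13.7).

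**Figure D2:**
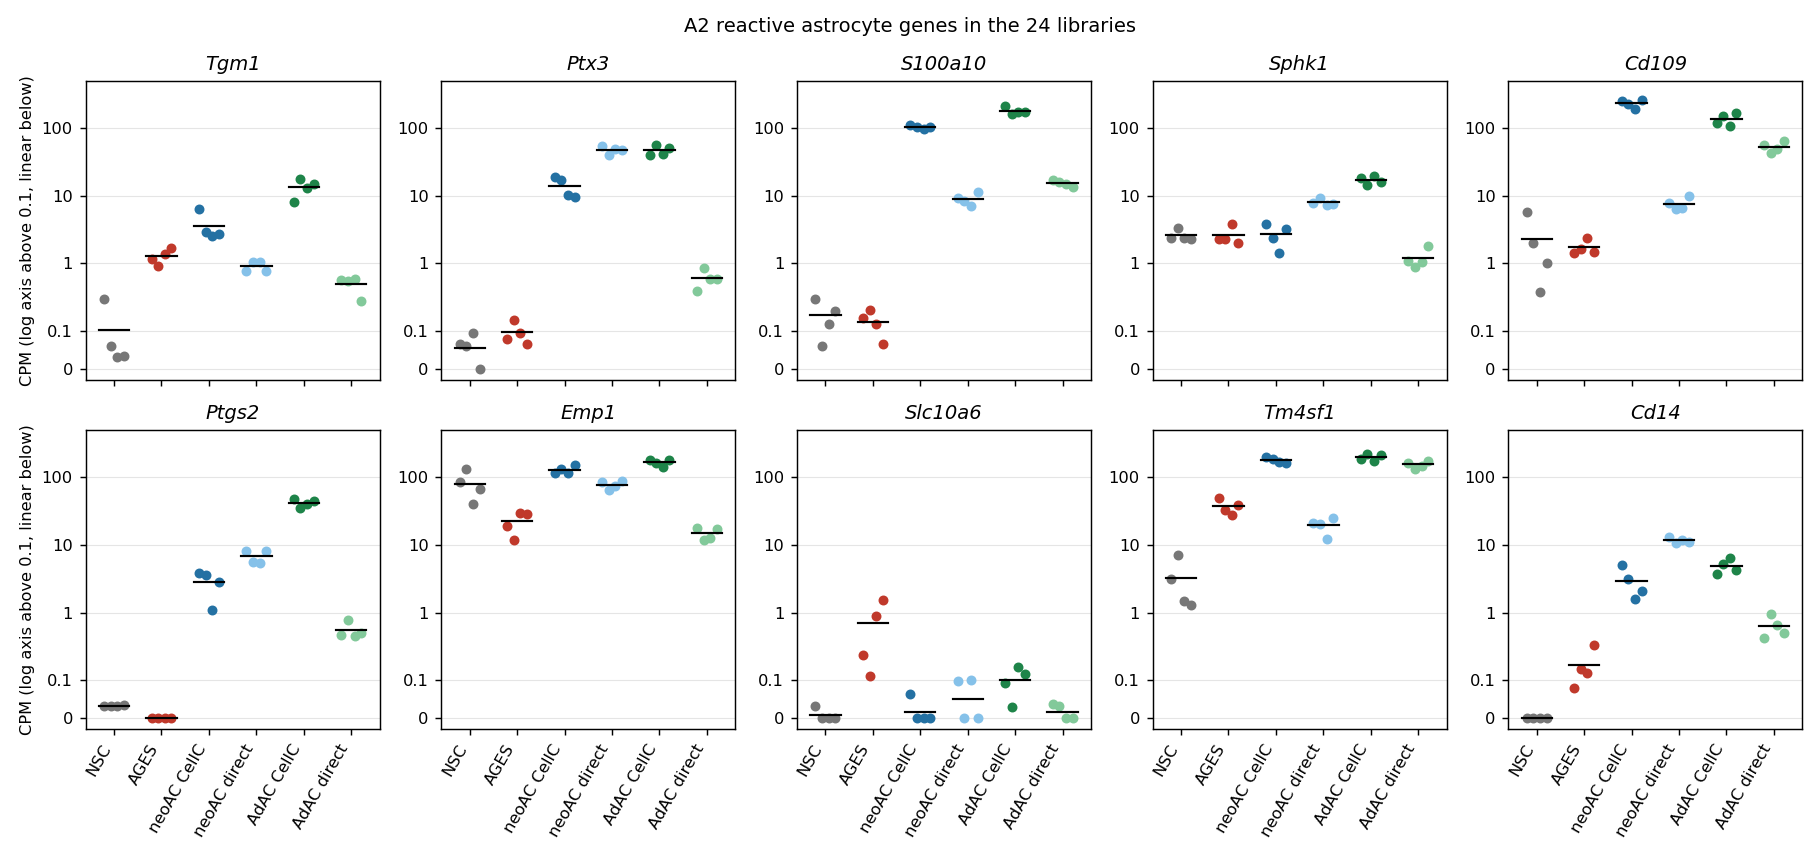
CPM of the 10 members in the 24 libraries (log axis above 0.1 CPM and linear below, 1 panel per gene, 1 point per library, black lines are group means). Ptx3, Ptgs2, Sphk1 and Cd14 are low in AdAC direct and higher in neoAC direct, whereas Cd109 and Tm4sf1 are higher in AdAC direct, and Slc10a6 is highest in AGES.

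The first comparison asks how astrocytes changed when they were put into culture. In adult astrocytes, 8 of the 9 members tested rose in culture and 0 fell (edgeR, adjusted p under 0.05; 0 were lower at an unadjusted p under 0.05, and DESeq2 called 8 higher and 0 lower), while 38.8% of all 19691 genes tested were called higher and 39.2% lower. Ptx3 and Ptgs2 had the largest fold changes, 77.03-fold and 77.04-fold, followed by Tgm1 (26.9-fold), Sphk1 (13.98-fold), S100a10 (11.9-fold), Emp1 (11.2-fold), Cd14 (7.59-fold) and Cd109 (2.58-fold). While the share of all genes without overlap is not given here, the libraries of the groups did not overlap for these 8 genes. Beside them, the summed fibroblast markers were 106 to 129.5 CPM before and 1129 to 1589 CPM after adult culture, with 6 of 7 genes called higher. The mural markers were 471 to 508 CPM before and 1690 to 2017 CPM after, with 3 of 8 genes higher and 5 lower, and the mesothelial and epithelial markers 26.7 to 29.4 and 90.2 to 201 CPM. Their part in the changes was not tested. Tm4sf1 was at a similar level on both sides, with a log2 fold change of 0.34 (95% interval −0.25 to 0.93, edgeR adjusted p = 0.269), and a fit of only these 8 libraries called the same change higher (edgeR adjusted p = 0.00331). The median log2 fold change was 3.57 over the members tested and 0 over all genes tested.

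In neonatal astrocytes the members split. In culture 5 rose, namely Cd109, S100a10, Tm4sf1, Tgm1 and Emp1, and 4 fell, namely Cd14, Ptx3, Sphk1 and Ptgs2. Among all genes tested, 34.4% were called higher and 31.3% lower, with 8625 higher and 4468 lower with library size scaling alone, against 6766 and 6170. The rises were 30.6-fold for Cd109, 11.5-fold for S100a10, 9.19-fold for Tm4sf1, 3.94-fold for Tgm1 and 1.66-fold for Emp1. Levels in culture were lower by 3.98-fold for Cd14, 3.43-fold for Ptx3, 2.95-fold for Sphk1 and 2.40-fold for Ptgs2. For all 9 members the libraries of the groups did not overlap, while the share of all genes without overlap is not given here. The call of Emp1 (edgeR adjusted p = 0.0207) was lost without neoAC CellC replicate 4 (0.0592), neoAC direct replicate 2 (0.0651) or neoAC direct replicate 3 (0.0501), and without a filter on low counts (0.0735). Ependymal markers summed to 132 to 194 CPM before and 1337 to 1697 CPM after neonatal culture, mural markers to 296 to 632 and 777 to 1436 CPM, endothelial markers to 106 to 417 and 49.7 to 79.5 CPM, and fibroblast markers to 369 to 592 and 437 to 745 CPM. The mural genes Acta2 (6.1 on the log2 scale) and Tagln (5.4) were called higher. Pdgfrb, Rgs5, Kcnj8, Abcc9, Vtn and Myh11 of that list were called lower. The part of all these markers in the changes was not tested. The median log2 fold change of the members was 0.73, beside 0.04 for all genes tested.

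**Figure D3:**
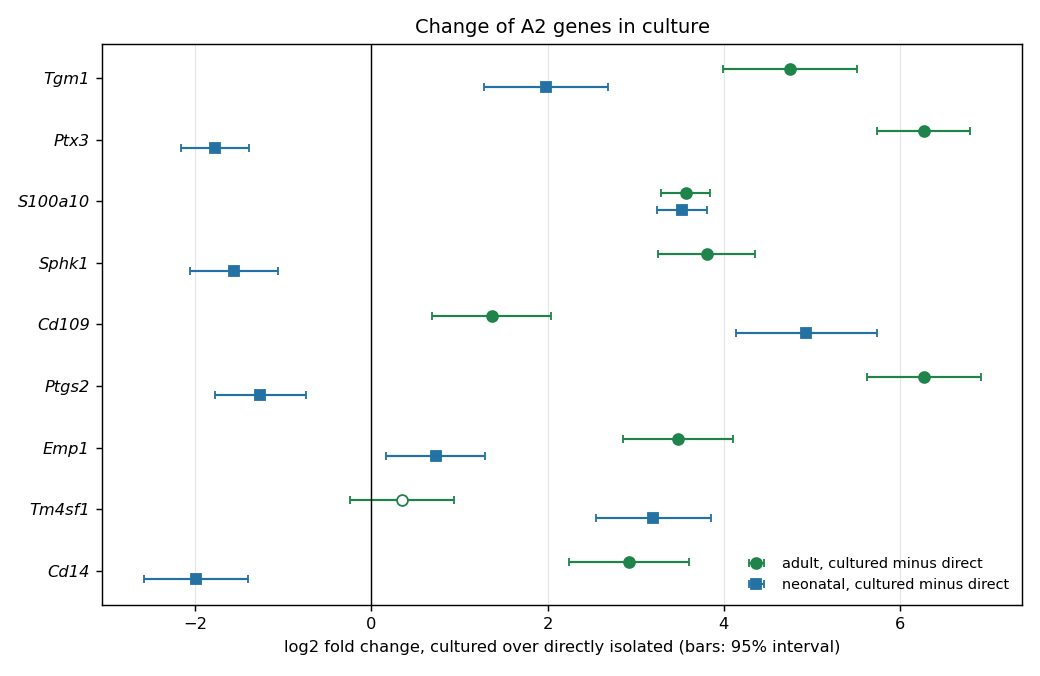
Log2 fold change of 9 members in culture over direct isolation, in adult (green circles) and neonatal (blue squares) astrocytes, with 95% intervals of the edgeR fit and filled symbols for called changes. Ptx3, Sphk1, Ptgs2 and Cd14 lie right of 0 in adult and left of 0 in neonatal astrocytes, and S100a10 lies at 3.57 in adult and 3.53 in neonatal astrocytes.

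Whether the change in culture differed between ages was tested with the interaction of culture and age in the same fit. It was called for 8 members, 6 with the more positive change in adult astrocytes and 2 (Cd109 and Tm4sf1) with the more positive change in neonatal astrocytes, while 35.4% of all genes were called in the first direction and 33.2% in the second. The difference of the log2 fold changes, adult minus neonatal, was 8.04 for Ptx3, 7.53 for Ptgs2, 5.37 for Sphk1 and 4.92 for Cd14, and these 4 genes rose in one culture and fell in the other. S100a10 was not called, with a difference of 0.05 (95% interval −0.32 to 0.41, edgeR adjusted p = 0.836).

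Directly isolated astrocytes of the 2 ages, the starting point of both cultures, differed in 8 members. Ptx3, Cd14, Ptgs2, Sphk1 and Emp1 were higher in neoAC direct, and Tm4sf1, Cd109 and S100a10 were lower, against 35% of all genes called higher in neoAC direct and 36.4% lower. The differences were 77.6-fold for Ptx3, 18.3-fold for Cd14, 12.4-fold for Ptgs2, 6.55-fold for Sphk1 and 5.25-fold for Emp1 toward neonatal cells, and 7.95-fold for Tm4sf1, 6.92-fold for Cd109 and 1.70-fold for S100a10 toward adult cells. Tgm1 was not called (edgeR adjusted p = 0.0516), but DESeq2 (0.0331) and the fit of only these 8 libraries (0.0135) called it higher in neoAC direct. Beside these values, 12 immediate early and stress genes such as Fos and Nr4a1, which respond within minutes to dissociation and many other stimuli, summed to 9676 to 14100 CPM in neoAC direct and 1410 to 2180 CPM in AdAC direct, and 10 of the 12 were called higher in neoAC direct. Oligodendrocyte markers summed to 320.4 to 394 CPM in neoAC direct against 25590 to 28410 CPM in AdAC direct, ependymal markers to 132 to 194 against 1156 to 1325 CPM, and fibroblast markers to 369 to 592 against 106 to 129.5 CPM. Their part in the differences of the members was not tested.

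After culture the ages differed in 7 members: Tgm1, Ptx3, S100a10, Sphk1, Ptgs2 and Cd14 were lower and Cd109 was higher in neoAC CellC than in AdAC CellC, while 28.5% of all genes were called higher and 35.2% lower. Ptgs2 was 14.9-fold lower, Sphk1 6.29-fold, Tgm1 3.71-fold, Ptx3 3.40-fold, S100a10 1.75-fold and Cd14 1.65-fold, and Cd109 was 1.72-fold higher. Emp1 and Tm4sf1 were not called, with 95% intervals of −0.92 to 0.20 and −0.72 to 0.46 for the log2 fold change, though the fit of only these 8 libraries called Emp1 lower (−0.27, edgeR adjusted p = 0.0340). Markers of other cells also differed between these groups. Oligodendrocyte markers summed to 247 to 329.6 CPM in neoAC CellC against 4090 to 10430 CPM in AdAC CellC, mesothelial and epithelial markers to 5.27 to 11.7 against 90.2 to 201 CPM, macrophage markers to 0.443 to 0.812 against 15.2 to 20.95 CPM, and ependymal markers to 1337 to 1697 against 221 to 311 CPM, and their part was not tested. Calls of Cd109 and Cd14 were not stable. Cd109 (edgeR adjusted p = 0.0353) was not called by DESeq2 (0.102) or without neoAC CellC replicate 1, 2 or 4 or AdAC CellC replicate 1 or 3 (0.0531 to 0.0977), and Cd14 (0.0276) was not called by DESeq2 (0.0684) or without neoAC CellC replicate 3 or 4 or AdAC CellC replicate 2 or 3 (0.0616 to 0.124).

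AGES were compared with the cultured primary cells they may stand in for. Against AdAC CellC, all 9 members tested were lower in AGES and 0 were higher (0 at an unadjusted p under 0.05, and DESeq2 called 1 member, Slc10a6, higher), while 45.2% of all genes were called lower and 31% higher. The median log2 fold change of the members was −4.79, with Ptgs2 at its bound, and that of all genes tested was −0.23. Against neoAC CellC, 8 members were lower and 0 higher (0 at an unadjusted p under 0.05, and DESeq2 again called Slc10a6 higher), while 40.5% of all genes were called lower and 34.1% higher, or 9820 lower and 4506 higher with library size scaling alone, against 7977 and 6710. Here the median of the members was −4.07 beside −0.07 for all genes, and Sphk1 was not called (log2 fold change −0.05, 95% interval −0.57 to 0.47, edgeR adjusted p = 0.862). Ptgs2, with 0 counts in AGES, has only a bound. Among the other members S100a10, whose mean in AGES was just above the floor, had the largest fold, 1267-fold against AdAC CellC and 724-fold against neoAC CellC. Fibroblast markers summed to 5.15 to 6.82 CPM and mural markers to 8.01 to 12.6 CPM in AGES, against 437 to 745 and 777 to 1436 CPM in cultured neonatal cells and 1129 to 1589 and 1690 to 2017 CPM in cultured adult cells, and their part in the differences was not tested.

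AGES are made from NSC with BMP4. The methods name FGF and EGF for NSC only, and the coating changes from gelatin to poly-ornithine and laminin. BMP4, growth factors and coating therefore cannot be told apart. Against NSC, 3 members were higher in AGES (Tgm1, Tm4sf1 and Cd14) and 1, Emp1, was lower, while 31.7% of all genes were called higher and 34% lower. Tgm1 was 12.02-fold and Tm4sf1 11.4-fold higher in AGES, and Emp1 was 3.62-fold lower. Cd14 was detected in every library of AGES and in none of NSC, which makes it at least 1.77-fold higher at the floor of 3 counts per library. Ptx3, S100a10, Sphk1, Cd109 and Ptgs2 were not called, and Ptgs2 was at or under the floor in both groups. When only NSC and AGES were fitted, 5 members passed the filter on low counts. Ptx3, S100a10, Ptgs2 and Cd14 had at most 10 counts per library here. They were tested only through their counts in the primary astrocytes.

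**Figure D4:**
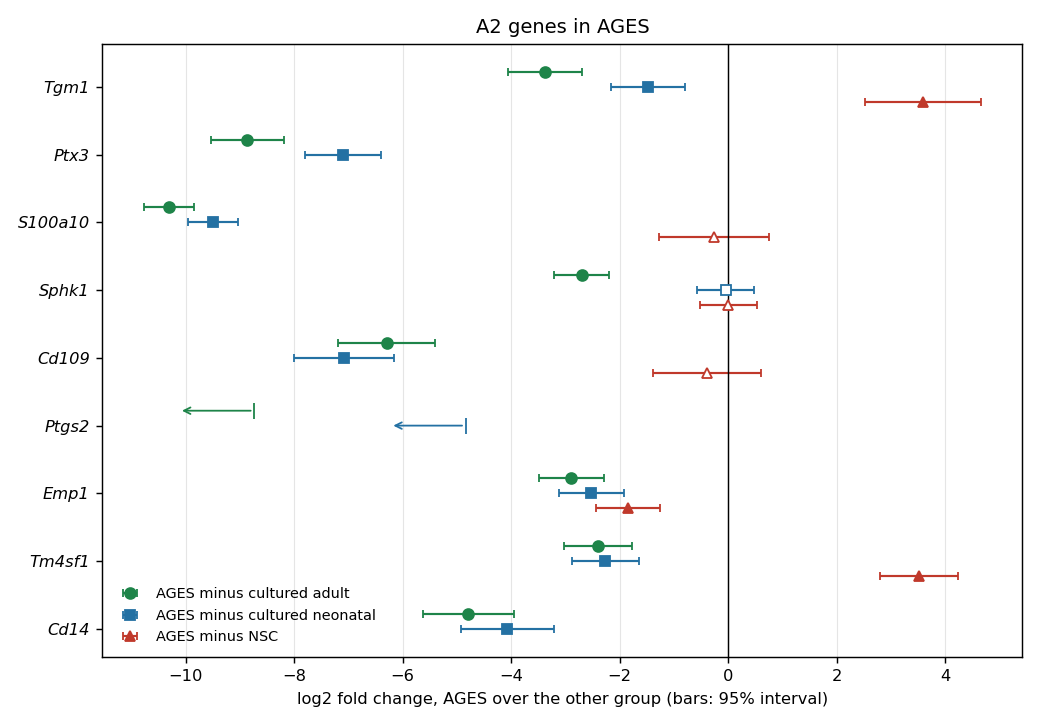
Log2 fold change of 9 members in AGES over AdAC CellC (green circles), neoAC CellC (blue squares) and NSC (red triangles), with 95% intervals of the edgeR fit and filled symbols for called changes. Arrows for Ptgs2 start at the bound set by the floor, and Ptx3, Ptgs2 and Cd14 have no symbol against NSC, where they are at the floor. Of the called changes drawn, those of Tgm1 and Tm4sf1 against NSC lie right of 0 and all others left of it.

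S100a10 (ENSMUSG00000041959, chr3:93555080-93564643, GRCm38) encodes the small subunit of the annexin A2 complex, which brings plasminogen activators to the cell surface. The 4 AdAC CellC libraries had 213, 162, 176 and 176 CPM and the neoAC CellC libraries 111, 104, 97.5 and 103 CPM. Before culture the libraries had 16.9, 15.8, 15.00 and 13.5 CPM in AdAC direct and 9.33, 8.30, 7.00 and 11.4 CPM in neoAC direct. NSC and AGES had 0.0607 to 0.293 and 0.0658 to 0.203 CPM. So all cultured primary libraries were above all directly isolated ones, and NSC and AGES were close to the floor. In culture the log2 fold change was 3.57 in adult cells (SE 0.13, edgeR adjusted p = 7.74e-18) and 3.53 in neonatal cells (SE 0.13, edgeR adjusted p = 4.68e-17). The order was AdAC CellC, neoAC CellC, AdAC direct, neoAC direct, NSC and AGES, and only NSC and AGES overlapped among neighbours.

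In the list of annexin A2, S100 proteins and plasminogen activation, 8 higher and 4 lower of 13 genes were called in adult culture (median log2 fold change 2.12) and 5 higher and 4 lower of 13 in neonatal culture (0.43). Anxa2, the partner of S100a10, had mean levels of 124 CPM in AdAC direct and 1011 CPM in AdAC CellC, and of 65.8 and 287 CPM in the neonatal groups. It stood at 4.65 CPM in AGES, and its log2 fold change in neonatal culture was 2.12 (SE 0.28, edgeR adjusted p = 6.07e-07). Plaur, the receptor of urokinase, changed by 7.46 (SE 0.54, edgeR adjusted p = 1.26e-11) in adult culture, Plau, urokinase itself, by 4.44 (SE 0.25, edgeR adjusted p = 2.63e-14), and S100a11 by 3.94 (SE 0.22, edgeR adjusted p = 1.15e-13). Against AdAC CellC, AGES had 3 higher and 7 lower of 13 of this list.

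Emp1 (ENSMUSG00000030208, chr6:135362545-135383173), a membrane protein of the PMP22 family found in epithelia and growing cells, had the highest level of a member per kilobase in NSC. Its libraries there had 85.6, 132, 40.2 and 67.1 CPM. AGES had 19.3, 11.97, 29.4 and 29.1 CPM, and the difference was called at a log2 fold change of −1.86 (SE 0.28, edgeR adjusted p = 3.91e-06). Every AGES library was thus below every NSC library. AdAC direct, at 17.6, 11.8, 12.6 and 17.5 CPM, was the group with the lowest mean, and it overlapped with AGES. Cultured adult cells had 182, 161, 143 and 179.5 CPM, a log2 fold change of 3.48 (SE 0.30, edgeR adjusted p = 4.25e-10). Among neonatal cells, the direct libraries had 84.9, 64.8, 73.7 and 89.01 CPM and the cultured ones 117, 132, 116 and 154 CPM, a change of 0.73 (SE 0.27, edgeR adjusted p = 0.0207). The 2 cultured groups overlapped at the top of the order, and the interaction showed the larger change in adult cells (2.75, SE 0.39, edgeR adjusted p = 1.84e-06).

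Tm4sf1 (ENSMUSG00000027800, chr3:57285611-57301988, minus strand), an L6 family protein abundant in endothelial cells and many tumours, was the member with the highest level per kilobase in AdAC direct. Its libraries there had 163, 136, 148 and 178 CPM, next to 184, 219, 173 and 215 CPM in AdAC CellC and 199, 190.1, 171 and 161 CPM in neoAC CellC, and these 3 groups overlapped. neoAC direct stood apart with 21.2, 20.3, 12.2 and 24.9 CPM, which is −2.99 on the log2 scale against AdAC direct (SE 0.31, edgeR adjusted p = 1.44e-08). In neonatal culture the rise was 3.20 (SE 0.31, edgeR adjusted p = 7.33e-09). AGES had 50.3, 32.9, 28.1 and 39.3 CPM and NSC 3.16, 7.13, 1.46 and 1.30 CPM, so that every AGES library was above every NSC library. The summed endothelial markers were 111 to 118 CPM in AdAC direct, 106 to 417 CPM in neoAC direct, 79.5 to 93.7 CPM after adult and 49.7 to 79.5 CPM after neonatal culture, and 1.61 to 3.19 CPM in AGES. Their part in the level of Tm4sf1 was not tested.

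The related family list of EMP, PMP22 and L6 genes had 2 higher and 0 lower of 7 genes called in adult culture and 3 higher and 1 lower of 7 in neonatal culture, and 4 of its 7 genes passed the filter. Emp3 rose in both, by 3.95 and 1.42 on the log2 scale. Emp2 had its highest mean in neoAC direct (508 CPM), and it changed by −2.75 (SE 0.09, edgeR adjusted p = 5.21e-18) in neonatal culture and by 0.63 (SE 0.09, edgeR adjusted p = 4.48e-07) in adult culture.

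Cd109 (ENSMUSG00000046186, chr9:78615546-78716253), a TGF-beta coreceptor that dampens signaling, was highest in neoAC CellC, with 257, 228, 195 and 262 CPM against 7.90, 6.34, 6.52 and 10.01 CPM in neoAC direct. This rise of 4.94 on the log2 scale (SE 0.38, edgeR adjusted p = 2.00e-10) was the largest of a member in neonatal culture. In adult cells the libraries had 55.7, 42.6, 49.3 and 65.1 CPM before and 121, 153, 107 and 166 CPM after culture, a rise of 1.37 (SE 0.32, edgeR adjusted p = 5.91e-04). Adult cells therefore started higher and ended lower than neonatal cells, and the groups did not overlap at either point. The difference after culture was not a stable call, as it was lost by DESeq2 and without any of several single libraries. NSC and AGES had 0.382 to 5.77 and 1.44 to 2.37 CPM. NSC replicate 1 was the highest of its group at 5.77 CPM, and without it the log2 fold change of AGES over NSC went from −0.39 to 0.61, neither of them called.

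Of the 7 TGF-beta ligands and receptors, 5 higher and 0 lower were called in adult culture and 3 higher and 4 lower in neonatal culture. Tgfb3 rose in both, by 3.37 (SE 0.16, edgeR adjusted p = 1.31e-15) and 2.37 (SE 0.16, edgeR adjusted p = 1.50e-12). Tgfb1 rose in adult culture by 3.53 (SE 0.26, edgeR adjusted p = 5.47e-12), from 1.97 to 22.8 CPM, and the endothelial coreceptor Eng changed in neonatal culture by −2.44 (SE 0.33, edgeR adjusted p = 9.71e-07).

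Ptgs2 (ENSMUSG00000032487, chr1:150100031-150108227), the inducible cyclooxygenase, had 48.7, 35.4, 40.2 and 45.4 CPM in AdAC CellC and 0.461, 0.772, 0.446 and 0.508 CPM in AdAC direct, a log2 fold change of 6.27 (SE 0.31, edgeR adjusted p = 2.42e-14). In neonatal cells the order was opposite, with 8.29, 5.54, 5.37 and 8.15 CPM in direct and 3.87, 3.62, 1.08 and 2.85 CPM in cultured libraries (−1.26, SE 0.25, edgeR adjusted p = 1.13e-04). No read was counted on Ptgs2 in the 4 libraries of AGES, and each NSC library had 1. Against the floor, Ptgs2 was at least 426-fold lower in AGES than in AdAC CellC and at least 28.6-fold lower than in neoAC CellC. The immediate early and stress list, which does not hold Ptgs2, summed to 9676 to 14100 CPM in neoAC direct and 486 to 772 CPM in neoAC CellC, and 12 of its 12 genes fell in neonatal culture. In adult culture, where Ptgs2 rose, 4 of the 12 rose and 7 fell, and the sum was 1410 to 2180 CPM in AdAC direct and 767 to 856 CPM in AdAC CellC. Its part in the change of Ptgs2 was not tested.

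Genes of the prostaglandin pathway around Ptgs2 moved in both directions. Of 18 genes for synthesis, transport and receptors, 6 higher and 5 lower were called in adult culture (median log2 fold change 0.18) and 5 higher and 6 lower in neonatal culture (−0.10 with the gene at the floor in both groups left out, 0.14 with its fitted value). The constitutive enzyme Ptgs1 changed by −2.33 (SE 0.26, edgeR adjusted p = 8.14e-09) in adult culture and by −1.52 (SE 0.28, edgeR adjusted p = 3.36e-05) in neonatal culture. Ptges, which makes prostaglandin E2, changed by −0.75 (SE 0.21, edgeR adjusted p = 0.00253) in adult culture, and Ptgds, the prostaglandin D synthase that is also abundant in oligodendrocytes and meninges, went from 1665 to 31.7 CPM. Against AdAC CellC, AGES had 2 higher and 14 lower of 18 genes called, among them Pla2g4a, which frees arachidonic acid, at −6.24 (SE 0.20, edgeR adjusted p = 2.71e-19).

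Sphk1 (ENSMUSG00000061878, chr11:116530925-116536674), 1 of the 2 sphingosine kinases, had 18.3, 14.5, 19.6 and 16.3 CPM in AdAC CellC and 1.10, 0.896, 1.04 and 1.83 CPM in AdAC direct (3.81 on the log2 scale, SE 0.26, edgeR adjusted p = 1.20e-12). neoAC direct had 7.83, 9.36, 7.44 and 7.52 CPM and neoAC CellC 3.87, 2.36, 1.44 and 3.27 CPM (−1.56, SE 0.24, edgeR adjusted p = 2.84e-06). NSC, AGES and neoAC CellC overlapped, with means of 2.64, 2.63 and 2.73 CPM. The exons of Sphk1 overlap the antisense gene Gm29292 over 192 bases, and it is not stated whether counting used the strand, but Gm29292 had at most 28 counts in a library. The other kinase, Sphk2, had means of 30.3 to 50.5 CPM over the 6 groups.

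Of 14 genes of sphingosine 1-phosphate metabolism and its receptors, 6 higher and 6 lower were called in adult culture and 4 higher and 4 lower in neonatal culture. The receptor S1pr1 changed by −4.92 (SE 0.20, edgeR adjusted p = 6.57e-17) in adult culture, and S1pr3 rose by 1.89 (SE 0.10, edgeR adjusted p = 3.32e-14) in neonatal culture. The phosphatase Plpp3 changed by −3.29 (SE 0.10, edgeR adjusted p = 3.53e-19) and −2.30 (SE 0.10, edgeR adjusted p = 3.87e-16), so the calls in this pathway went in both directions.

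Ptx3 (ENSMUSG00000027832, chr3:66219910-66225805) was the member with the largest contrast between ages before culture. neoAC direct had 54.8, 40.8, 49.5 and 47.1 CPM and AdAC direct 0.390, 0.865, 0.594 and 0.592 CPM, a log2 fold change of 6.28 (SE 0.25, edgeR adjusted p = 5.86e-17). After culture the adult libraries had 39.98, 57.5, 41.5 and 51.8 CPM (6.27, SE 0.25, edgeR adjusted p = 3.61e-17) and the neonatal ones 19.2, 16.97, 10.3 and 9.72 CPM (−1.78, SE 0.18, edgeR adjusted p = 5.13e-09). Cultured adult and directly isolated neonatal cells thus overlapped at the top of the order. NSC had 2, 2, 3 and 0 counts and AGES 2, 5, 3 and 2 counts in their libraries. Without neoAC direct replicate 2, whose endothelial markers (417 CPM) and macrophage markers (25.8 CPM) were the highest of the group, the change in neonatal culture was −1.85, and in that library Ptx3 was the lowest of the 4.

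The pentraxin list of 7 genes, which includes the neuronal pentraxins and Tnfaip6, a matrix partner of Ptx3, had 3 higher and 2 lower genes called in adult culture and 2 higher and 3 lower in neonatal culture. Nptx2 changed in the directions of Ptx3, by 3.47 (SE 0.34, edgeR adjusted p = 1.53e-09) and −3.59 (SE 0.34, edgeR adjusted p = 1.43e-09). Tnfaip6 changed by −2.14 (SE 0.15, edgeR adjusted p = 8.27e-13) in adult culture, opposite to Ptx3. In neonatal culture it changed by −0.435 (SE 0.144, edgeR adjusted p = 0.0104), in the direction of Ptx3.

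Cd14 (ENSMUSG00000051439) was highest in neoAC direct, with 13.3, 10.8, 11.7 and 11.2 CPM against 0.426, 0.957, 0.654 and 0.508 CPM in AdAC direct (4.19 on the log2 scale, SE 0.33, edgeR adjusted p = 1.13e-10). It fell in neonatal culture to 4.99, 3.14, 1.61 and 2.11 CPM (−1.99, SE 0.28, edgeR adjusted p = 1.62e-06) and rose in adult culture to 3.71, 5.19, 6.35 and 4.22 CPM (2.93, SE 0.33, edgeR adjusted p = 2.87e-08). AGES had 2, 5, 4 and 10 counts and NSC none. Cd14 is a known marker of microglia and macrophages, and the markers of these cells are given beside it. The 10 microglial genes summed to 30.9 to 89.3 CPM in neoAC direct, 58.01 to 62.8 CPM in AdAC direct, 40.6 to 55.01 CPM in cultured neonatal and 66.6 to 86.9 CPM in cultured adult cells, and 6 macrophage genes to 5.26 to 25.8, 3.06 to 4.43, 0.443 to 0.812 and 15.2 to 20.95 CPM. The same microglial genes summed to 88.2 to 93.4 CPM in AGES and 48.2 to 67.6 CPM in NSC, where 5 of the 10 genes were at the floor in each. Csf1r had a mean of 13.04 CPM in neoAC direct and 0.417 CPM in neoAC CellC, and Cx3cr1 4.24 and 0.385 CPM. In neonatal culture 7 of the 10 microglial genes and 4 of the 5 macrophage genes tested fell beside Cd14, in adult culture 6 and 3 of them rose beside it, and their part in these changes was not tested. neoAC direct replicate 2 had the highest microglial sum of its group (89.3 CPM, against 30.9 to 47.8 CPM in the other libraries) and the lowest Cd14, and without it the change in neonatal culture was −2.03.

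Among 13 genes of the lipopolysaccharide receptor and Toll-like receptor signaling, 9 higher and 2 lower were called in adult culture (median log2 fold change 0.69) and 7 higher and 2 lower in neonatal culture (0.72). Tlr2 rose in both, by 1.98 (SE 0.26, edgeR adjusted p = 1.60e-07) and 3.18 (SE 0.27, edgeR adjusted p = 1.67e-10), and so did Tlr4, by 1.80 (SE 0.29, edgeR adjusted p = 3.43e-06) and 1.93 (SE 0.33, edgeR adjusted p = 1.22e-05). Cd14 and its receptor partner Tlr4 therefore changed in opposite directions in neonatal culture.

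Tgm1 (ENSMUSG00000022218, chr14:55700009-55713926, minus strand), the transglutaminase of the cornified envelope in skin, was low except in cultured adult cells. AdAC CellC had 8.01, 17.7, 13.3 and 14.8 CPM against 0.568, 0.556, 0.594 and 0.282 CPM in AdAC direct (4.75, SE 0.36, edgeR adjusted p = 8.79e-12). neoAC CellC had 6.30, 2.93, 2.55 and 2.74 CPM and neoAC direct 0.780, 1.05, 1.05 and 0.765 CPM (1.98, SE 0.33, edgeR adjusted p = 1.20e-05). AGES, at 1.17, 0.928, 1.38 and 1.71 CPM, lay above every NSC library, where Tgm1 had 9, 2, 1 and 1 counts (3.59, SE 0.51, edgeR adjusted p = 6.85e-07). Its exons overlap the antisense gene Gm49067 over 182 bases, which was not analysed here. Among the 7 other transglutaminases, Tgm2 rose by 3.43 (SE 0.37, edgeR adjusted p = 2.18e-08) in adult culture, 3.47 (SE 0.38, edgeR adjusted p = 5.99e-08) in neonatal culture and 3.93 (SE 0.39, edgeR adjusted p = 9.52e-09) in AGES over NSC. Of this list 2 higher and 2 lower were called in adult culture and 2 higher and 2 lower in neonatal culture.

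Slc10a6 (ENSMUSG00000029321, chr5:103605711-103629403, minus strand), the sodium-dependent organic anion transporter, was at or under 6 counts in every library outside AGES. The 4 AGES libraries had 6, 4, 28 and 47 counts, a range of 0.116 to 1.55 CPM, whereas the NSC libraries had 1, 0, 0 and 0 and the AdAC CellC libraries 3, 1, 6 and 4. The ranges of AGES and AdAC CellC overlapped. At the floor of 3 counts per library, its mean was at least 7.26-fold higher in AGES than in NSC and at least 8.26-fold higher than in neoAC CellC. Without AGES replicate 4, its highest library, the bounds were 4.32-fold and 4.91-fold. It did not pass the filter used for the edgeR results above. Without that filter edgeR gave adjusted p = 5.93e-06 against NSC, 6.38e-06 against neoAC CellC and 6.54e-04 against AdAC CellC, and DESeq2 gave adjusted p = 1.61e-05 against NSC, 0.000111 against neoAC CellC and 0.00847 against AdAC CellC. Of the 6 other SLC10 genes only Slc10a3 and Slc10a7 passed the filter, and both rose in adult and in neonatal culture, Slc10a3 by 2.40 (SE 0.17, edgeR adjusted p = 1.12e-12) and 2.76 (SE 0.18, edgeR adjusted p = 1.45e-12).

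The members differed in how alike their patterns were. Over the 24 libraries, which share the 6 groups, the Pearson correlations of the log2 CPM of 36 pairs ranged from 0.054 to 0.96, with a median of 0.678. Ptx3 was most like Cd14 (r = 0.960) and Ptgs2 (r = 0.952), and S100a10 was most like Cd109 (r = 0.942). Emp1 and Tm4sf1 had the least alike levels (r = 0.0540), followed by Sphk1 and Tm4sf1 (r = 0.0970).

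Among 12113 protein-coding genes with a mean of at least 10 CPM in a group, those with the pattern most like each member were named, with members left out. For S100a10 these were Fbln5 (r = 0.991) and Jph2 (r = 0.990), and Fbln5 is itself a gene of the A1 panel. Ptgs2 was followed by Plscr1 (r = 0.985) and Casp8 (r = 0.979), and Ptx3 by Itga2 (r = 0.981) and Kcnip1 (r = 0.978). For Cd109 they were Crybg1 (r = 0.976) and Nlrc5 (r = 0.972), for Tm4sf1 Spsb1 (r = 0.967) and Scube3 (r = 0.964) and for Cd14 Tbc1d9 (r = 0.968) and Ptp4a3 (r = 0.963). Tgm1 was most like Cflar (r = 0.955) and Cgnl1 (r = 0.949), Sphk1 like Smad3 (r = 0.946) and Maff (r = 0.926) and Emp1 like Arl4c (r = 0.943) and Igfbp2 (r = 0.930). These values describe likeness over 6 groups and say nothing of shared control.

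The other panels of reactive astrocytes are given for comparison. Beyond the 10 members, the published A2 panel holds Clcf1 and B3gnt5, which both rose in adult culture and in neonatal culture. Clcf1, a cytokine of the CNTF receptor, rose by 5.27 (SE 0.35, edgeR adjusted p = 3.11e-12) and 4.26 (SE 0.37, edgeR adjusted p = 7.46e-10), and B3gnt5, a glycosyltransferase, by 5.27 (SE 0.22, edgeR adjusted p = 1.01e-16) and 0.83 (SE 0.16, edgeR adjusted p = 6.41e-05). Clcf1 was also higher in AGES than in NSC, by 5.37 (SE 0.41, edgeR adjusted p = 4.29e-11), whereas B3gnt5 was lower there (−2.01, SE 0.71, edgeR adjusted p = 0.0153). Of 13 pan-reactive genes, 11 higher and 1 lower were called in adult culture (median log2 fold change 3.71) and 11 higher and 0 lower in neonatal culture (1.89), and of 11 A1 genes 6 higher and 3 lower (1.58) and 9 higher and 2 lower (2.58). Of all genes tested, 38.8% were called higher and 39.2% lower in adult culture, and 34.4% and 31.3% in neonatal culture. In AGES over NSC, 10 pan-reactive genes were higher and 0 lower, and 4 A1 genes were higher and 1 lower, beside 3 and 1 of the A2 members. Of all genes, 31.7% were higher and 34% lower there, and the A2 member Cd14 was tested only through its counts in primary astrocytes. In AGES over AdAC CellC the pan-reactive genes split into 4 higher and 8 lower, the A1 genes into 1 higher and 9 lower, and the A2 members into 0 higher and 9 lower, with 31% of all genes higher and 45.2% lower. The counts of the panels share libraries, and the differences between the panels were not tested.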

How the data were processed

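RNA-seq was done on 24 libraries, 4 in each of 6 groups taken from the sample titles. The authors deposited raw counts per gene and library. They sequenced TruSeq stranded mRNA libraries as read pairs, aligned them to GRCm38 with STAR 2.7.3a and counted with featureCounts over Gencode exons; whether strand was used is not given in the sources used here. Of 49671 gene IDs, 49412 (99.48%) were found in Gencode vM21, which gave symbols and coordinates.

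Here the counts were filtered with filterByExpr (19691 genes), scaled with TMM and fitted in 1 model of the 6 groups with edgeR 4.0.16 (quasi-likelihood, robust), with Benjamini-Hochberg adjustment over all genes tested and a threshold of 0.05. Unadjusted and adjusted p-values in the text are from this fit unless DESeq2 1.42.0, an alternative, is named. The alternatives were DESeq2 size factors, library size only, no filter, a minimum of 10 counts in each library, DESeq2's own test, a second criterion of a log2 fold change beyond 1 in size, fits restricted to the groups compared (plain, or blocked by replicate number), and leaving out each library. Values at 0 were set against a floor of 3 counts per library. R 4.3.3, Python 3.11.15, pandas 2.3.3 and matplotlib 3.10.9 were used. On data simulated for neonatal culture over direct isolation, with 19691 genes of which 17319 were tested, edgeR recovered 83 of 100 genes changed by 1 and 99 of 100 changed by 2 on the log2 scale, with 12 false calls.

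The members and lists were chosen with earlier results of these data known. All 10 members were named. Of each related list up to 3 called genes with the largest change and a mean of at least 10 CPM in a group could be named per comparison, and for each member the 2 protein-coding genes with the highest Pearson r over the libraries (log2 CPM, prior count 2). Values of partners and markers named outside this rule (such as Anxa2, Ptgs1, Sphk2, Tlr4, Pla2g4a, Emp2, Csf1r and Cx3cr1) and the promoters shown were chosen after their values were seen. Replicates were compared by chi-square over genes, and none agreed within counting noise.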

Additional observations from a re-analysis of the deposited data

Results flagged for a closer look

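In 52 groups of 4 libraries, 5 held a library of a member that stood far from the rest by Dixon's test, and chance flags about 1 in 20 groups. Tgm1, the protein crosslinker, was high in NSC replicate 1 at 0.293 CPM (next 0.0607) and in neoAC CellC replicate 1 at 6.30 CPM (next 2.93), and low in AdAC direct replicate 4 at 0.282 CPM (next 0.556). Sphk1, which makes sphingosine 1-phosphate, was high in NSC replicate 2 at 3.37 CPM (next 2.42) and in AGES replicate 3 at 3.84 CPM (next 2.32).

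The change in culture differed between adult and neonatal astrocytes in 8 members by the test of the difference itself, given as the adult minus the neonatal log2 fold change. The differences were 8.04 for Ptx3 (SE 0.31, edgeR adjusted p = 7.91e-17), 7.53 for Ptgs2 (SE 0.39, edgeR adjusted p = 1.69e-13), 5.37 for Sphk1 (SE 0.35, edgeR adjusted p = 1.10e-12) and 4.92 for Cd14 (SE 0.43, edgeR adjusted p = 9.58e-10), which rose in adult and fell in neonatal culture. They were 2.77 for Tgm1 (SE 0.49, edgeR adjusted p = 2.25e-05) and 2.75 for Emp1 (SE 0.39, edgeR adjusted p = 1.84e-06), which rose in both cultures. They were −3.57 for Cd109 (SE 0.47, edgeR adjusted p = 8.14e-07) and −2.86 for Tm4sf1 (SE 0.41, edgeR adjusted p = 2.41e-06), with the more positive change in neonatal culture.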

How the results depend on the processing

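Of the alternatives' values for single members, 1118 kept direction and side of the threshold, 25 turned direction, 25 lost and 8 gained a call. Slc10a6 was tested only without the filter and by DESeq2, and there 1 member instead of 0 was higher in AGES than in AdAC CellC and than in neoAC CellC. In neoAC CellC over AdAC CellC, 0 members instead of 1 were higher without the filter, by DESeq2 and with a log2 fold change over 1, and 0 to 1 with 1 library left out, which is Cd109. With at least 10 counts in every library only 4 members were tested: 3 were higher in adult culture, 3 higher and 1 lower in neonatal culture, 1 higher in AGES over NSC, 4 lower in AGES than in AdAC CellC, 3 lower than in neoAC CellC, 1 lower in neoAC CellC than in AdAC CellC, 2 higher in neoAC direct than in AdAC direct, and 2 higher in the interaction. Of all 11977 genes tested so, 4611 were higher and 5216 lower in adult culture, and 4486 and 4082 in neonatal culture. For AGES the counts were 4847 and 4828 over NSC, 4683 and 4673 over AdAC CellC, and 4421 and 4427 over neoAC CellC. They were 4206 and 3825 in neoAC CellC over AdAC CellC and 4667 and 4522 in neoAC direct over AdAC direct. In the interaction they were 4147 and 4555.

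The values that turned direction were not called in any of these fits. For AGES over NSC, Sphk1 had a log2 fold change of 0.081 with DESeq2 size factors, 0.075 without the filter, 0.098 with at least 10 counts, 0.083 by DESeq2, 0.089 in the fit of the compared groups and −0.247 to 0.136 without 1 library. With 1 library left out, S100a10 ranged from −0.555 to 0.134 and Cd109 from −0.747 to 0.612, both highest without NSC replicate 1. For AGES over neoAC CellC, Sphk1 had −0.296 to 0.16 without 1 library. For neoAC CellC over AdAC CellC, Tm4sf1 had 0.001 with at least 10 counts. In the interaction, S100a10 had −0.05 with DESeq2 size factors, −0.103 with library size only, −0.051 by DESeq2 and −0.087 to 0.148 without 1 library. The cause was not tested.

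Replicate numbers showed no sign of pairing (correlations of deviations −0.095 to 0.106). This check cannot exclude shared isolations or passages, and whether direct and cultured libraries shared an isolation is not stated. With a replicate block, AGES over NSC was 0.062 for Sphk1 and 0.172 for Cd109, not called, and Tm4sf1 was called higher in adult culture (0.36, edgeR adjusted p = 0.00307). Members with few counts, such as Slc10a6 and Cd14 in AGES, are limited by depth.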
